A study of Mus musculus with 8 samples.

Results

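Transthyretin and 8 retinoid handling genes were followed in the kidneys of mice that had lost the transcription factor c-Maf. The 9 genes were *Ttr*, *Rbp4*, *Stra6*, *Aldh1a1*, *Aldh1a3*, *Aldh1a7*, *Dhrs3*, *Rarb* and *Cyp26b1*. They were chosen by name, with their genotype differences in these mice already known, from 55367 genes listed in the count table. All 9 were among the 20149 genes with enough reads to be tested. Whole-kidney RNA from 8 C57BL/6J mice aged 8 weeks was depleted of ribosomal RNA and sequenced. In the 4 *c-Maf*ΔTAM mice (Maf conditional KO) a tamoxifen-activated Cre recombinase, driven by the ubiquitous CAG promoter, deleted the floxed *Maf* gene. The 4 *c-Maf* fl/fl mice (Maf flox/flox) carried the floxed gene without Cre. The groups are written ΔTAM and fl/fl from here on. Both groups received tamoxifen, and kidneys were taken on TAM(10d), 10 days after tamoxifen. The deletion was not confined to one cell type, and the presence of Cre and the loss of c-Maf cannot be told apart in this design. Because the 9 genes were chosen on this genotype contrast, their differences are given as descriptions without a test.

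Vitamin A travels in blood as retinol on retinol-binding protein (*Rbp4*), which is held in a complex with transthyretin (*Ttr*), also a carrier of thyroxine. The complex keeps retinol-binding protein from being lost by glomerular filtration, and the proximal tubule takes back what is filtered through the endocytic receptor megalin (*Lrp2*). Inside cells, retinol enters through *Stra6*, is oxidized to retinal and then by members of the Aldh1a family to retinoic acid, which acts on nuclear receptors such as *Rarb* and is cleared by Cyp26 enzymes. *Dhrs3* runs the first oxidation backward, from retinal to retinol.

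For 7 of the 9 genes, 14 promoter sequences were found in RefSeq (build GRCm38.p6). Each ran from 250 bases before to 50 bases after a transcription start. They were searched on both strands for the Maf recognition element and its half-site, and for direct-repeat retinoic acid response elements with 5 or 2 bases between repeats (DR5 and DR2). Maf proteins bind a TRE-type and a CRE-type element, which extend the half-site TGCTGAC into a palindrome. Neither complete element was in a promoter of these 7 genes, and over all 32851 promoters the TRE-type was found in 1 and the CRE-type in 0. The half-site itself was in 4.67% of all promoters and in none of the 7 genes. Its 6-letter core TGCTGA was in 19.5% of all promoters and, among these 14, in 1 promoter each of *Stra6*, *Aldh1a1* and *Aldh1a7*. The DR5 element was in 0.0974% of all promoters and in *Rarb*, the receptor gene known for it, while DR2 was in 0.268% and in none of the 7 genes. Parts of these promoters are shown 5′ to 3′ from 100 bases before to 20 bases after the start, with the matched letters in capitals, because they hold the matches among the 7 genes. They lie at chr9:58128988-58129107 (*Stra6*, plus strand), chr19:20601868-20601987 (*Aldh1a1*, plus strand), chr19:20727537-20727656 (*Aldh1a7*, minus strand) and chr14:16575457-16575576 (*Rarb*, minus strand).
Stra6: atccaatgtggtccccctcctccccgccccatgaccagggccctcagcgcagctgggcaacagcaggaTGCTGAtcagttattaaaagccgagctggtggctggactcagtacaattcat
Aldh1a1: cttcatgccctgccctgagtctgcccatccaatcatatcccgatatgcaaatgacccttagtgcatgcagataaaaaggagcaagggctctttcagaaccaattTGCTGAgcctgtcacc
Aldh1a7: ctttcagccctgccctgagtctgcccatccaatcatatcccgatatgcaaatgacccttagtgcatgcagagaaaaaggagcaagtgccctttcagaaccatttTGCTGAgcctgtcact
Rarb: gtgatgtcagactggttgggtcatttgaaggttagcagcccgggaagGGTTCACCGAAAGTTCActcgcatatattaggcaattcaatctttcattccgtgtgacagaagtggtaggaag
The core began 32 bases before the start in *Stra6* and at base 5 after it in both dehydrogenase genes, and the *Rarb* element began 53 bases before the start. Over these windows *Aldh1a1* and *Aldh1a7* shared 112 of 120 bases (93.3%), against 177 of 300 (59%) over the full promoters. The *Stra6*, *Aldh1a1* and *Rarb* windows lie inside the gene spans given below, not at their outer 5′ ends. A match of these letters is a description of the window and no measure of binding.

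Each kidney gave 16649129 to 22990257 reads assigned to genes. Values below are CPM, read counts scaled to the size of each library, after TMM normalization, which corrects for differences in library composition. *Maf* itself was 9.06, 34.5, 29.6 and 10.1 CPM in ΔTAM mice 1 to 4, against 379.9, 342, 305 and 351 CPM in fl/fl mice 1 to 4, so every mouse matched its label. The labels did not give the sex of the mice. *Xist*, the RNA of the inactive X chromosome, was near 0 (2 to 22 reads) in ΔTAM mouse 1 and fl/fl mice 3 and 4. It reached 17618 to 22387 reads in the other 5, so the low-*Xist* mice numbered 1 against 2. *Ddx3y*, a gene of the Y chromosome, had 773, 917 and 778 reads in the low-*Xist* mice and 0 to 7 reads in the others. By these 2 genes the low-*Xist* mice were male and the high-*Xist* mice female, so the *Xist* classes below are a split by sex. The genotype contrast was therefore also fitted with *Xist* as a covariate and in the 5 high-*Xist* mice, of which 3 were ΔTAM and 2 fl/fl. The text supplied for RNA extraction named liver, whereas the tissue label was whole kidney. The kidney genes *Slc34a1* (27360 to 87959 reads) and *Umod* (32383 to 70212 reads) were abundant, and the liver genes *Cyp7a1* and *Ahsg* had 0 reads in all 8 mice. In edgeR's quasi-likelihood test, 436 of 20149 genes (2.16%) passed an adjusted *P* of 0.05 between genotypes, 318 lower (1.58%) and 118 higher (0.586%) in ΔTAM mice. With the *Xist* covariate 1374 genes passed (6.82%), including 435 of the 436.

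Among the 9 genes, 2 were past that threshold, *Ttr* and *Aldh1a7*, both lower in ΔTAM mice (background 1.58%), and none was higher (background 0.586%). With the *Xist* covariate or in high-*Xist* mice, *Stra6* joined them, making 3 lower (background 4.23% and 2.22%, of 6.82% and 3.75% in either direction). DESeq2 also called 3 lower (background 2.81% lower, 4.4% in all), and edgeR's exact test called 2 (background 2.11% lower, 3.38% in all). The genotypes did not overlap for 2 genes that were lower and 1 that was higher (background 5.62% and 4.17%, 9.79% in all). Since the genes were chosen on this contrast, nothing is read from these counts. The plot of each gene by mouse gives the values described next.

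**Figure D1:**
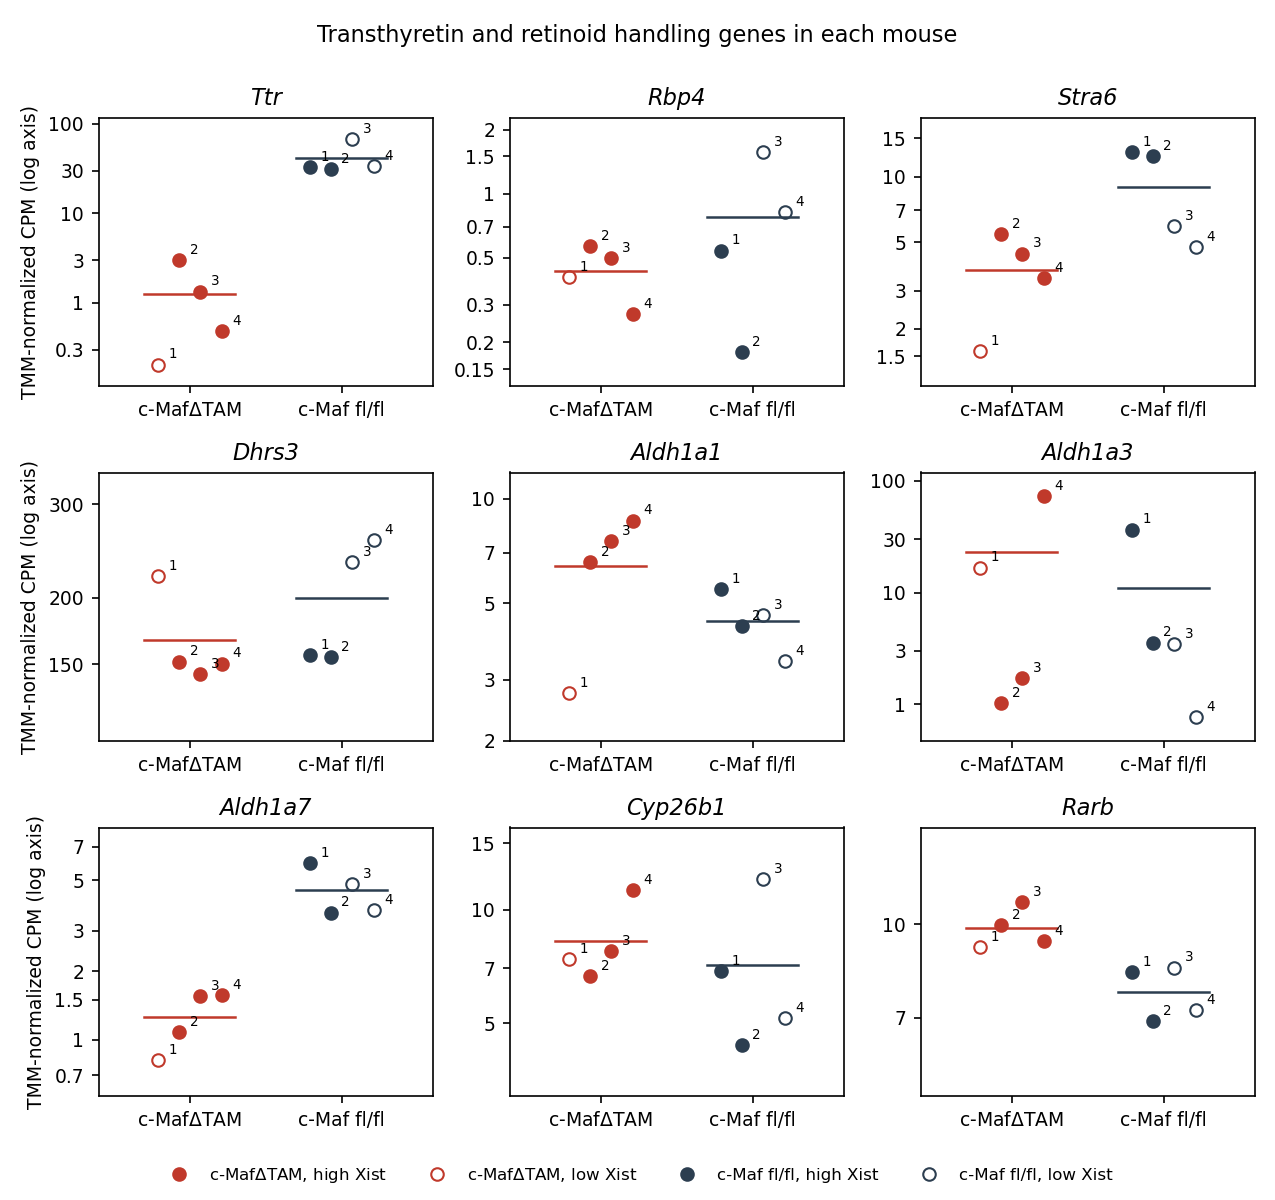
TMM-normalized CPM on log axes for the 9 genes. Each numbered point is 1 mouse, filled where *Xist* was high and open where it was low, and horizontal lines are arithmetic means of 4 mice. The genotypes are apart for *Ttr*, *Aldh1a7* and *Rarb*, while *Dhrs3* is higher in the 3 open points and *Aldh1a3* spans over an order of magnitude in both genotypes.

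*Ttr*, on chromosome 18, was the retinol carrier gene with the largest difference. It stood at 0.204, 3.03, 1.33 and 0.487 CPM in ΔTAM mice 1 to 4, whereas it was 32.6, 31.5, 67.8 and 33.5 CPM in fl/fl mice 1 to 4. These came from 4, 59, 24 and 9 reads in the first genotype and 665, 697, 1337 and 572 reads in the second. Every ΔTAM mouse lay below every fl/fl mouse, and fl/fl mouse 3 stood well above the other 3. Average levels of 1.26 ± 1.27 and 41.4 ± 17.7 CPM (SD, n = 4 mice per genotype) made a 32.8-fold lower level with a log2 fold change of -5.02 (SE 0.678, 95% interval -6.64 to -3.41). The *Xist* covariate gave -4.92 and the high-*Xist* mice gave -4.29, and without any single mouse the value ranged from -5.95 (without ΔTAM mouse 2) to -4.66 (without ΔTAM mouse 1). In the retained *Ttr* signal the ΔTAM mice differed among themselves by over an order of magnitude, and their low-to-high order (mice 1, 4, 3, 2) was that of their residual *Maf*. *Stra6* was the other of the 9 genes in this order, which 1079 of 20149 tested genes (5.36%) also followed, so it is a description of 4 mice. In fl/fl mice the order of *Ttr* was not that of *Maf*, and mouse 3, the highest for *Ttr*, was the lowest for *Maf*. In whole-kidney RNA, fewer cells of a type and less RNA per cell cannot be told apart for any of these genes. 

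**Figure D2:**
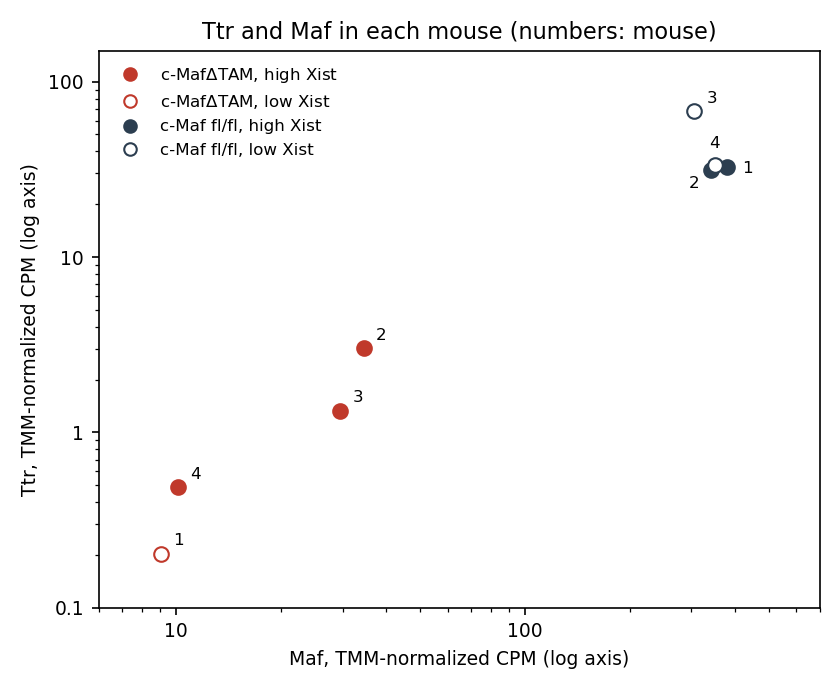
*Ttr* against *Maf* in TMM-normalized CPM, both axes logarithmic, with 1 numbered point per mouse, open where *Xist* was low. The ΔTAM mice run from mouse 1 at 9.06 CPM of *Maf* and 0.204 CPM of *Ttr* to mouse 2 at 34.5 and 3.03 CPM, and the fl/fl mice form a separate cluster at 305 CPM of *Maf* and above.

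The genes whose profile over the 8 mice was most like that of *Ttr* were *Slc34a3*, *D630023F18Rik*, *Clec2h*, *Slc16a14* and *Maf*. Likeness was the root mean square difference of log2 CPM after each gene was set to its own mean, and these values were 0.476, 0.61, 0.666, 0.759 and 0.762. *Slc34a3*, a sodium-phosphate cotransporter of the proximal tubule, stood at 0.407, 5.44, 3.33 and 1.35 CPM in ΔTAM mice and 60.3, 65.0, 56.5 and 44.7 CPM in fl/fl mice. *Clec2h* averaged 0.577 ± 0.604 against 32.2 ± 9.93 CPM (SD, n = 4 each), and *Slc16a14*, a member of the monocarboxylate transporter family, 6.36 ± 4.61 against 91.3 ± 41.0 CPM. Markers of the S1 and S2 segments of the proximal tubule also moved with genotype, as 5 of 10 passed the test and all 5 were lower (background 1.58%). Their summed level ran from 9738 to 13510 CPM in ΔTAM mice and from 15857 to 17926 CPM in fl/fl mice, without overlap. The part of this in the levels of *Ttr*, *Stra6* and *Aldh1a7* was not tested. Of 17 hepatocyte markers, a cell type that makes much transthyretin and retinol-binding protein, 10 were tested and edgeR's quasi-likelihood test called none, with 1 higher and 2 lower at an unadjusted *P* under 0.05. With the *Xist* covariate 2 were lower (background 4.23%), and in high-*Xist* mice 2 of 11 tested were higher and 1 was lower (background 1.53% and 2.22%). *Alb*, which encodes serum albumin, had 13, 50, 19 and 22 reads in ΔTAM mice and 156, 196, 53 and 58 reads in fl/fl mice, without overlap when scaled, and a log2 fold change of -2.04 (adjusted *P* = 0.0804). *Serpina1a*, of the same list, went the other way in ΔTAM mice 2 to 4. It had 28, 194, 262 and 252 reads in ΔTAM mice and 40, 42, 25 and 84 reads in fl/fl mice. The hepatocyte markers summed to 485 to 721 CPM in ΔTAM and 690.2 to 798 CPM in fl/fl mice, most of it *Apob* (8540 to 15231 reads), while *Tat* and *Cps1* had at most 2 reads a mouse and *Asgr1* at most 4. In the lists for the S3 segment, thick limb, distal convoluted tubule, collecting duct, podocytes, fibroblasts, macrophages and tubular injury none passed and at most 1 gene of each had an unadjusted *P* under 0.05. With the *Xist* covariate and in high-*Xist* mice 1 S3 marker was higher and 1 tubular injury marker lower, and in high-*Xist* mice 1 thick limb marker was higher. Of 6 endothelial markers 1 was lower (background 1.58%), also with the covariate, but 0 were in high-*Xist* mice.

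*Rbp4* (chr19:38116629-38125281), which encodes the protein that carries retinol beside transthyretin, was barely present. It had 8, 11, 9 and 5 reads in ΔTAM mice and 11, 4, 31 and 14 reads in fl/fl mice, or 0.271 to 0.565 CPM against 0.181 to 1.57 CPM. The genotypes overlapped, and the log2 fold change of -0.81 had an interval from -2.04 to 0.41. It was -0.20 without fl/fl mouse 3 alone, -1.16 without fl/fl mouse 2, and 0.32 in high-*Xist* mice. The interval includes no difference, and with so few reads the counts do not settle a direction.

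*Stra6* (chr9:58063788-58153996), the membrane receptor through which cells take up retinol from retinol-binding protein, stood at 1.58, 5.44, 4.44 and 3.41 CPM in ΔTAM mice and at 12.9, 12.4, 5.94 and 4.75 CPM in fl/fl mice. The genotypes overlapped over all mice, because ΔTAM mouse 2 was above fl/fl mouse 4. Within each *Xist* class they did not overlap. Low-*Xist* mice had 1.58 against 4.75 and 5.94 CPM, and high-*Xist* mice 3.41 to 5.44 against 12.4 and 12.9 CPM. The log2 fold change was -1.28 (SE 0.436) over all mice, -1.52 (SE 0.185) with the covariate and -1.52 in high-*Xist* mice (interval -1.94 to -1.09). Of the 9 genes 4 were lower and 1 was higher within both *Xist* classes, against 11.1% and 9.5% of all tested genes.

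*Dhrs3* (chr4:144892827-144928209), the retinal reductase, was the most abundant of the 9 genes, and the low- and high-*Xist* mice did not overlap. It stood at 220.1, 152, 144 and 151 CPM in ΔTAM mice and at 156, 155, 233 and 257 CPM in fl/fl mice. The 3 low-*Xist* mice had 220.1 to 257 CPM and the 5 others 144 to 156 CPM. Within both classes the ΔTAM mice were the lower, but in high-*Xist* mice by only 0.06 on the log2 scale (interval -0.23 to 0.11). Over all mice the log2 fold change was -0.27 (interval -0.72 to 0.19), and it ranged from -0.43 without ΔTAM mouse 1 to -0.12 without fl/fl mouse 4.

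The Aldh1a family was represented by *Aldh1a1* and *Aldh1a3*, which make retinoic acid from retinal, and by *Aldh1a7*, a close relative of *Aldh1a1* in rodents whose part in retinoic acid synthesis is not established. *Aldh1a7* (chr19:20692953-20727562) stood at 0.814, 1.08, 1.55 and 1.57 CPM in ΔTAM mice and at 5.94, 3.61, 4.82 and 3.69 CPM in fl/fl mice. There was no overlap, and the 3.60-fold lower mean gave a log2 fold change of -1.85 (SE 0.268, interval -2.43 to -1.26). The difference was of similar size with the *Xist* covariate (-1.93), in high-*Xist* mice (-1.77) and without any single mouse (-1.98 to -1.69). Its neighbour on the same chromosome, *Aldh1a1* (chr19:20492715-20643465), stood at 2.75, 6.57, 7.54 and 8.66 CPM in ΔTAM mice and 5.49, 4.29, 4.62 and 3.40 CPM in fl/fl mice. Here 3 ΔTAM mice were above all fl/fl mice and mouse 1, of low *Xist*, was below them, with a log2 fold change of 0.51 (interval -0.15 to 1.18). It was 0.33 without ΔTAM mouse 4, 0.77 without ΔTAM mouse 1 and 0.30 with the *Xist* covariate. In high-*Xist* mice, where the genotypes did not overlap, it was 0.63 (interval 0.19 to 1.08). Of the 36-base words in the exons of *Aldh1a7*, 11.4% also occurred elsewhere, mainly in *Aldh1a1*, against 4.7% of those of *Aldh1a1*. A read of such a word can be placed only through its mate, so some reads of both genes may be misplaced.

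*Aldh1a3* (chr7:66390890-66427517) varied most among mice of one genotype. It stood at 16.7, 1.03, 1.72 and 72.8 CPM in ΔTAM mice and at 36.6, 3.57, 3.45 and 0.762 CPM in fl/fl mice. The highest and lowest mice differed 95.5-fold, high and low mice were in both genotypes, and the log2 fold change of 1.05 had an interval from -2.87 to 4.97. Without ΔTAM mouse 4 it became -0.77, and without fl/fl mouse 1 it became 3.12. The 5 genes with the most similar profile, looked up after these values were seen, were *Sptssb*, *Igfbp2*, *Vcan*, *Fcgbp* and *Psca* (root mean square difference 0.76 to 0.973). *Psca*, a surface antigen of epithelia such as the bladder lining, stood at 10.2, 1.28, 1.28 and 17.1 CPM in ΔTAM mice and at 16.9, 2.12, 8.42 and 1.11 CPM in fl/fl mice. *Crabp2*, which delivers retinoic acid to the nucleus, was too low to test and had 15 reads in ΔTAM mouse 4, 13 in fl/fl mouse 1 and 0 or 1 in the other 6 mice.

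Markers of the urinary tract lining and of the kidney surface were also uneven. *Upk3b*, in the list for mesothelium, stood at 5.24, 0.822, 1.16 and 7.69 CPM in ΔTAM mice and at 8.29, 1.94, 4.36 and 0.704 CPM in fl/fl mice, highest in the same 3 mice as *Aldh1a3*. *Lrrn4*, of the same list, had 0, 3, 2 and 0 reads in ΔTAM mice and 4, 17, 6 and 2 reads in fl/fl mice and was not high in those 3 mice. The 4 mesothelial markers summed to 13.4, 5.34, 6.43 and 16.7 CPM and to 16.5, 7.72, 10.1 and 4.69 CPM in the same order of mice. The 5 urothelial markers summed to 11.2, 6.78, 6.60 and 18.3 CPM and to 9.81, 10.7, 17.3 and 3.99 CPM, with the highest sum in ΔTAM mouse 4, as for *Aldh1a3*, and the highest of the fl/fl mice in mouse 3 rather than mouse 1. None of the 5 urothelial markers and none of the 3 mesothelial markers tested passed between genotypes (edgeR's quasi-likelihood test, none also at an unadjusted *P* under 0.05). The part of these cells in the level of *Aldh1a3* was not tested.

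**Figure D3:**
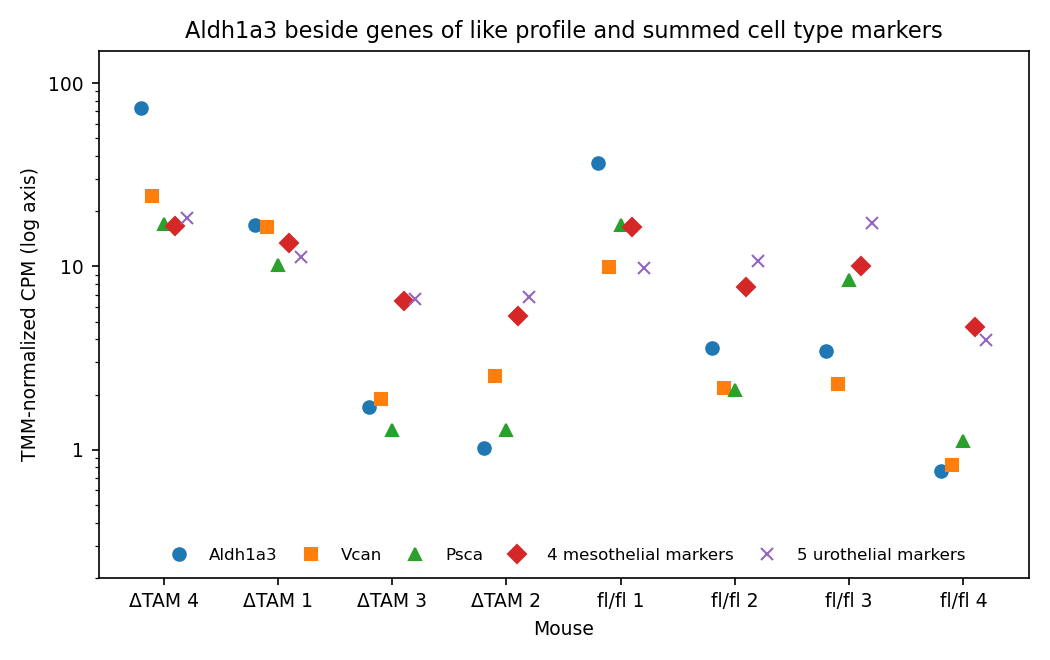
*Aldh1a3*, 2 of the genes most like it (*Vcan*, *Psca*) and the summed levels of the 4 mesothelial and the 5 urothelial markers in each mouse, as TMM-normalized CPM on a log axis, with ΔTAM mice in the order 4, 1, 3, 2. *Aldh1a3*, *Vcan*, *Psca* and the mesothelial sum are high together in ΔTAM mice 4 and 1 and fl/fl mouse 1, and the urothelial sum is highest in ΔTAM mouse 4 (18.3 CPM) and fl/fl mouse 3 (17.3 CPM).

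*Cyp26b1* (chr6:84571414-84593908), which clears retinoic acid by hydroxylation, stood at 7.38, 6.68, 7.76 and 11.3 CPM in ΔTAM mice and at 6.87, 4.38, 12.1 and 5.16 CPM in fl/fl mice. The genotypes overlapped, and the log2 fold change was 0.21 (interval -0.46 to 0.89). With the *Xist* covariate it was 0.30. In high-*Xist* mice it was 0.61 (interval 0.04 to 1.17), though the genotypes overlapped there too. The highest value in each genotype was in 1 mouse, and without 1 mouse the log2 fold change ranged from 0.03 (without ΔTAM mouse 4; 0.04 without fl/fl mouse 2) to 0.60 (without fl/fl mouse 3).

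*Rarb* (chr14:16430839-16819156), the retinoic acid receptor whose own promoter carries the DR5 element shown above, stood at 9.16, 9.96, 10.9 and 9.37 CPM in ΔTAM mice and at 8.34, 6.91, 8.47 and 7.21 CPM in fl/fl mice. All 4 ΔTAM mice were above all 4 fl/fl mice, as for 4.17% of tested genes. The difference was small, with a log2 fold change of 0.35 (interval 0.06 to 0.64) that stayed between 0.30 and 0.40 without any single mouse. Of its exon bases 38.4% overlap *Top2b*, and reads there were not counted, so its level is understated.

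Per exon length, in RPKM (CPM divided by exon length in kilobases), the order of levels in fl/fl mice was *Dhrs3* at 68.4 ± 18.1 and *Ttr* at 34.9 ± 14.9 (SD, n = 4 each). *Aldh1a3*, *Aldh1a7*, *Stra6*, *Rarb*, *Cyp26b1*, *Aldh1a1* and *Rbp4* followed at 2.40, 2.19, 1.55, 1.47, 1.33, 0.901 and 0.580. The place of *Aldh1a3* (SD 3.69) rested on fl/fl mouse 1, and without it the mean was 0.562 RPKM, position 9. Among neighbours in this order over all 4 mice, *Ttr* and *Aldh1a3* were the only pair whose mice did not overlap. In ΔTAM mice *Dhrs3* was still first at 56.9 ± 12.2 RPKM, whereas *Ttr* was in position 6 at 1.07 ± 1.07 RPKM and *Rarb* in position 3 at 1.87 ± 0.146 RPKM.

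The rest of the retinoid pathway was represented by 54 other genes, of which 39 had enough reads to be tested. Of these 1 was lower and 0 were higher in ΔTAM mice (background 1.58% and 0.586%), and their median log2 fold change was -0.06, against 0.00 for all genes. At an unadjusted *P* under 0.05, 6 were lower and 1 was higher, against 7.44% and 6.58% of all tested genes. The gene that fell was *Ces1g*, a carboxylesterase of a family that hydrolyses retinyl and other esters. It stood at 0.254, 0.359, 0.499 and 0.325 CPM in ΔTAM mice and at 3.53, 2.26, 9.18 and 10.6 CPM in fl/fl mice. The 17.8-fold lower mean gave a log2 fold change of -4.13 (SE 0.578, adjusted *P* = 0.00606, edgeR's quasi-likelihood test), lower in 4 of 4 mice. The difference was smaller in high-*Xist* mice, at -2.86 (adjusted *P* = 0.00056), and *Ces1g* in fl/fl mice was itself lower in the high-*Xist* mice 1 and 2 than in mice 3 and 4. In ΔTAM mice it rested on 5 to 9 reads a mouse, and 3.82% of its 36-base words also occurred elsewhere, mainly in *Ces1c*.

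By role, none of the 5 other uptake genes passed, among them megalin (*Lrp2*) at -0.17 (adjusted *P* = 0.719) and *Cubn* at -0.03 (adjusted *P* = 0.912, edgeR's quasi-likelihood test). *Lrp2* was the most abundant uptake gene per exon length, at 454 ± 40.9 RPKM in fl/fl and 405 ± 92.7 RPKM in ΔTAM mice (SD, n = 4 each). Among the esterases, *Ces1d* led at 72.4 ± 22.1 against 49.4 ± 20.2 RPKM. *Bco2*, a carotenoid-cleaving enzyme, stood at 2.44 ± 0.788 against 3.22 ± 1.34 RPKM. Of the 14 other retinol dehydrogenases and reductases tested, *Rdh16f2* had the highest mean in fl/fl mice, at 88.9 ± 43.3 against 108 ± 44.9 RPKM. *Adh1* followed it at 77.5 ± 53.7 RPKM and had the higher mean in ΔTAM mice (142.5 ± 42.4 RPKM), but the order of both genes differed between mice of each genotype. *Aldh8a1*, a retinal dehydrogenase of another family, stood at 51.1 ± 10.4 against 51.3 ± 7.17 RPKM. Of the receptors, *Rxra*, the partner of the retinoic acid receptors, led at 25.1 ± 3.41 against 20.3 ± 0.869 RPKM. None of these genes passed the test over all 8 mice.

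**Figure D4:**
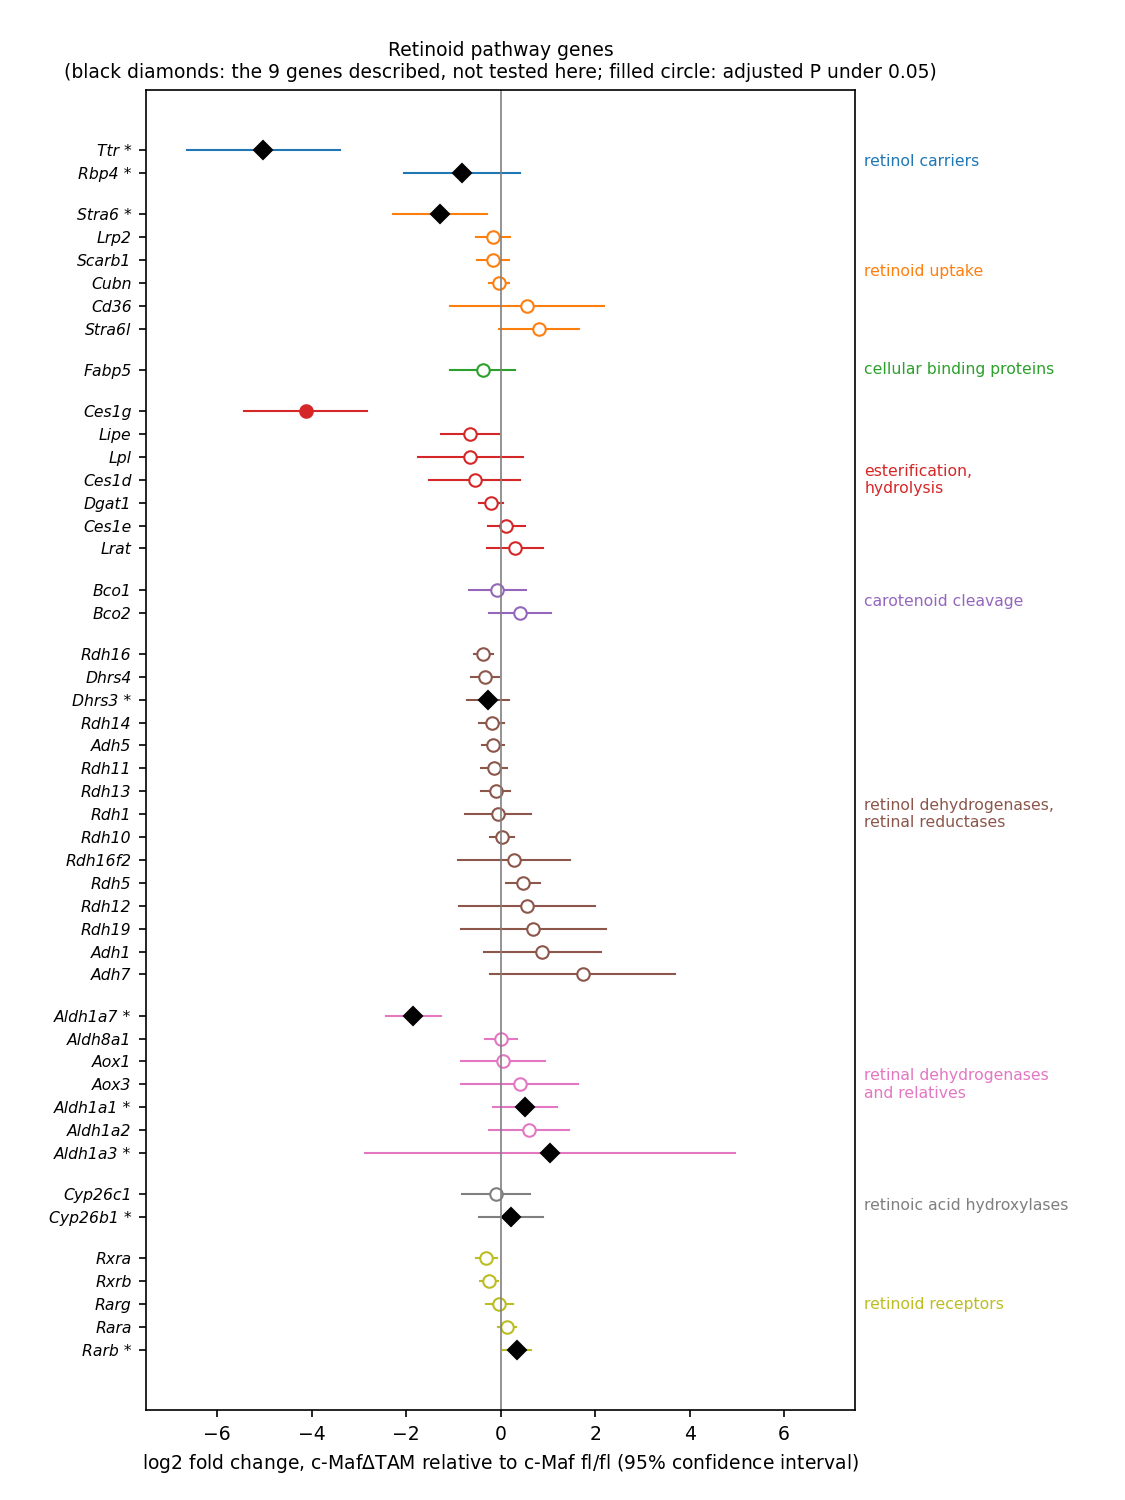
Log2 fold change of ΔTAM relative to fl/fl mice with its 95% confidence interval for the retinoid pathway genes with enough reads that are reported here, grouped by role. Black diamonds are the 9 genes described here and are not tested, and circles are the others, filled where the adjusted *P* was under 0.05. *Ces1g* at -4.13 is the only filled circle, and *Aldh1a3* has the widest interval.

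With *Xist* in the fit, further pathway genes passed, and *Adh7*, an alcohol dehydrogenase that oxidizes retinol, was one that rose. It stood at 17.2, 4.67, 3.83 and 4.71 CPM in ΔTAM mice and at 1.23, 0.316, 2.89 and 4.87 CPM in fl/fl mice. Over all mice the genotypes overlapped and the log2 fold change was 1.74 (adjusted *P* = 0.42), or 0.95 without ΔTAM mouse 1 and 2.38 without fl/fl mouse 4, but within each *Xist* class every ΔTAM mouse was above every fl/fl mouse. The *Xist* covariate gave 2.13 (SE 0.330, adjusted *P* = 0.00241) and the high-*Xist* mice gave 2.52 (adjusted *P* = 0.00302, edgeR's quasi-likelihood test). *Adh1*, a close relative on the same chromosome, stood at 450.4, 261, 322 and 240.1 CPM in ΔTAM mice and at 82.5, 82.8, 191 and 336 CPM in fl/fl mice. It was again higher within each class, by 1.73 in high-*Xist* mice (adjusted *P* = 1.22e-06), but not past the threshold over all mice (0.88, adjusted *P* = 0.521, and 0.65 without fl/fl mouse 1 to 1.42 without fl/fl mouse 4) or with the covariate (1.27, adjusted *P* = 0.127). No test of a difference between *Xist* classes was made.

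The covariate fit called 2 of the 39 higher (*Adh7* and *Stra6l*) and 2 lower (*Ces1g* and *Rdh16*), against backgrounds of 2.59% and 4.23%. *Stra6l*, a relative of *Stra6* and a receptor for retinol-binding protein, averaged 21.9 ± 9.09 CPM in ΔTAM and 12.5 ± 4.41 CPM in fl/fl mice (SD, n = 4 each). The covariate gave a log2 fold change of 0.98 (adjusted *P* = 0.0230), against 0.82 without (adjusted *P* = 0.378), opposite in sign to that of *Stra6*. *Rdh16*, a retinol dehydrogenase, stood at 87.1 to 106 CPM against 117 to 135 CPM and changed by -0.36 with the covariate (adjusted *P* = 0.0144). Its words were shared with neighbouring genes of the same family to 20.1%. In high-*Xist* mice 4 of 40 genes were higher (*Adh1*, *Adh7*, *Cd36* and *Ces1e*) and 3 lower (*Ces1d*, *Ces1g* and *Rdh16*), against backgrounds of 1.53% and 2.22%. *Cd36*, a scavenger receptor, was 0.40 higher there (adjusted *P* = 0.0432), *Ces1e* 0.47 higher (adjusted *P* = 0.0278) and *Ces1d* changed by -0.59 (adjusted *P* = 0.000367). Within both *Xist* classes 7 of the 39 genes were higher without overlap and 6 lower, against 9.5% and 11.1% of all tested genes.

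**Figure D5:**
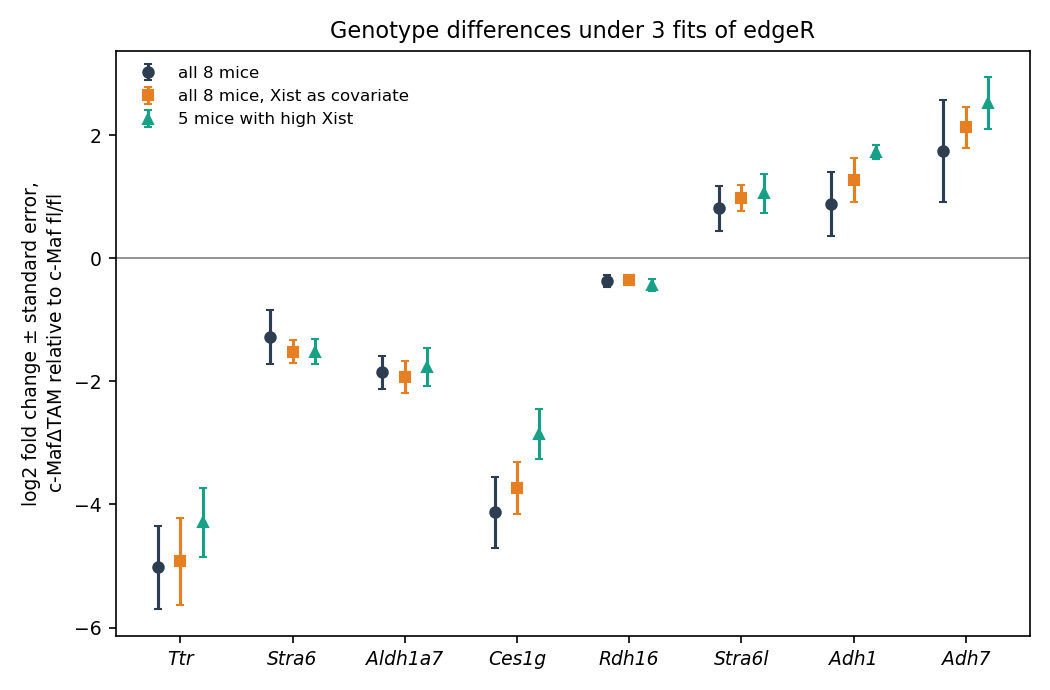
Log2 fold change ± standard error of 8 pathway genes, ΔTAM relative to fl/fl mice, in 3 fits of edgeR. Circles use all 8 mice, squares all 8 mice with *Xist* as a covariate and triangles the 5 high-*Xist* mice. *Ttr*, *Stra6*, *Aldh1a7* and *Ces1g* are below 0 in each fit, and the standard error of *Stra6* and *Adh7* is smaller in the fits that take *Xist* into account.

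Of 17 genes known to respond to retinoic acid, 4 were among the 9 genes described (*Stra6*, *Rarb*, *Dhrs3* and *Cyp26b1*) and are left out here. Of the other 13, 8 were tested, and edgeR's quasi-likelihood test called 0 higher and 0 lower, with 0 higher and 1 lower at an unadjusted *P* under 0.05. The *Xist* covariate, the high-*Xist* mice and DESeq2 also called 0 in either direction. The median log2 fold change of the 8 was -0.09. Among 14 thyroid hormone handling genes, a list that includes *Ttr* for its role as a thyroxine carrier, 11 were tested and 2 besides *Ttr* fell (background 1.58%). *Slc16a10*, a transporter of aromatic amino acids and thyroid hormones, stood at 33.7, 37.4, 35.7 and 31.0 CPM in ΔTAM mice and at 62.1, 61.7, 84.7 and 71.3 CPM in fl/fl mice. Its log2 fold change was -1.02 (SE 0.112, adjusted *P* = 0.000373, edgeR's quasi-likelihood test) and passed without any single mouse. *Slc7a8*, an amino acid transporter that also carries thyroid hormones, averaged 99.4 ± 31.8 against 253 ± 37.0 CPM (SD, n = 4 each), a log2 fold change of -1.35 (adjusted *P* = 0.0265), and passed in 3 of the 8 fits without 1 mouse. Of the 7 genes for uptake of small filtered proteins, 1 fell (background 1.58%), *Dab2*, the endocytic adaptor of megalin, from 418 ± 30.2 to 317 ± 18.0 CPM. Its log2 fold change was -0.40 (adjusted *P* = 0.0392), and it passed in 2 of the 8 fits without 1 mouse.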

How the data were processed

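Whole-kidney RNA of 8 mice was sequenced as 2 × 36 base paired reads from directional, ribosomal RNA-depleted libraries. The authors deposited raw counts per gene name and exon length. Per the file headers they were made with featureCounts (2.0.1) on exons of the Ensembl annotation of GRCm38 (release 102), with no strand setting, both mates counted, and reads shared by overlapping genes left out. The submitters' processing notes also name Subread (2.0.2) and edgeR (3.36.0). The paper's methods map the reads in CLC Genomics Workbench and use its quantile method. Whether those alignments lie behind the deposited counts is not given in the sources used here, and that route was not repeated. No (0) columns of per-sample values went unused.

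Counts were filtered by edgeR's filterByExpr, normalized by TMM and fitted across 20149 genes in R (4.3.3) by the quasi-likelihood test of edgeR (4.0.16), with Benjamini-Hochberg adjustment. Reported CPM are TMM-normalized, and RPKM divide them by exon length. Log2 CPM, as in the likeness of profiles, use a prior count of 2, and log2 fold changes of the quasi-likelihood fit use edgeR's default. Intervals are 95% confidence intervals. Alternatives used limma (3.58.1) and DESeq2 (1.42.0), other normalizations, filters and thresholds, a replicate block, *Xist*, and each mouse left out. The test was checked on simulated counts. Figures were drawn with matplotlib.

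The genes described, the pathway and marker lists and the tests were chosen with earlier results of these data known. Besides the 9 genes, the text names pathway genes past the threshold, the most abundant gene of each role (for 1 role it is not reported here), the 5 profiles nearest to *Ttr*, genes of the other lists past the threshold, and checks. *Adh1*, *Cd36*, *Ces1d*, *Ces1e*, *Stra6l*, *Rdh16* and *Adh7* passed only under an alternative. *Crabp2*, *Upk3b*, *Lrrn4*, *Alb*, *Serpina1a*, *Cubn*, *Slc5a2*, *Slc2a2* and the genes most like *Aldh1a3* were named after their values were seen. The mice are separate animals, and the intervals and tests cover the spread between them.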

Additional observations from a re-analysis of the deposited data

Results flagged for a closer look

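Among 76 groups of 4 mice (38 genes in 2 genotypes), 12 had 1 mouse whose gap to the nearest other was past Dixon's limit for the group's range. Chance flags about 1 group in 20. Several of these genes were chosen for their pattern across mice or for *Xist*, so the number is not read against chance. *Ttr* was high in fl/fl mouse 3 at 67.84 CPM (others 31.46 to 33.54). *Aldh1a3* was high in fl/fl mouse 1 at 36.59 CPM, against 0.762 to 3.566 CPM, and so was *Vcan* at 9.859 CPM, against 0.821 to 2.283 CPM. *Lrp2* was high in fl/fl mouse 2 at 8602 CPM, against 7165 to 7292 CPM.

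The other 8 were all in ΔTAM mouse 1, the only low-*Xist* mouse of its genotype (*Xist* 0.1018 CPM, against 953.9 to 1007 CPM). There *Dhrs3* stood at 220.1 CPM (others 144 to 151.9), *Cd36* at 418.6 CPM (others 89.39 to 96.29), *Adh7* at 17.2 CPM (others 3.826 to 4.71) and *Bco2* at 11.04 CPM (others 5.101 to 5.957). In the same mouse *Ces1d* was low at 45.99 CPM (others 132.6 to 147.1), *Rdh16f2* at 52.0 CPM (others 153.4 to 174) and *Lrp2* at 4466 CPM (others 7183 to 7710).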

How the results depend on the processing

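The count of 436 genes became 682 with edgeR's exact test, 886 with DESeq2, 1374 with the *Xist* covariate, 789 in high-*Xist* mice and 180 at an adjusted *P* under 0.01. Without 1 mouse it ranged from 239 (without ΔTAM mouse 3) to 452, with 256 without ΔTAM mouse 2 and 285 without fl/fl mouse 3. The 2 of the 9 genes that were lower became 1 at 0.01, and 1 when 10 reads were required in every mouse, which removes *Ttr*, and ranged from 1 to 2 without 1 mouse (1 without ΔTAM mouse 3 or 4). The 1 lower pathway gene became 2 with DESeq2, with a filter of 1 read or with the covariate, 3 in high-*Xist* mice and 0 with 10 reads in every mouse, which removes *Ces1g*. Without 1 mouse it was 1 to 2, the latter without ΔTAM mouse 1. The higher pathway genes became 2 with the covariate and 4 in high-*Xist* mice, and stayed 0 without any 1 mouse. The thyroid list's 2 lower genes besides *Ttr* became 1 with quantile normalization, the filter of 1 read or 0.01, and 4 with DESeq2 or the covariate (1 to 3 without 1 mouse). The call of *Dab2* became 0 with upper-quartile factors, quantile normalization, the exact test or 0.01 (0 to 1 without 1 mouse). The log2 fold change of *Cd36* reversed to -0.35 without ΔTAM mouse 1, with 0.82 the highest value without 1 mouse. The causes were not tested.

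Replicate numbers do not pair the mice, since same-numbered mice correlated at -0.37, 0.15, -0.11 and -0.33. With the replicate block 129 genes passed, none (0) of the 9 genes, 1 thyroid gene and 0 for small protein uptake.

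Low counts limit *Rbp4* and the ΔTAM levels of *Ttr* and *Ces1g*. With 4 mice a genotype and 1 low-*Xist* ΔTAM mouse, genotype differences between *Xist* classes could not be estimated well.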
